A study of Arabidopsis thaliana with 3 samples.

Results

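The genes described here encode 10 chaperones and folding enzymes of the endoplasmic reticulum (ER) of Arabidopsis thaliana, chosen by locus code. They are BIP1 (AT5G28540), BIP2 (AT5G42020), BIP3 (AT1G09080), ERDJ3B (AT3G62600), SDF2 (AT2G25110), CNX1 (AT5G61790), CRT1A (AT1G56340), CRT1B (AT1G09210), CRT3 (AT1G08450) and PDIL1-1 (AT1G21750). All 10 were measured, by 17 probes, among 24656 genes measured by 34273 named probes. RNA from rosettes of lsm1a lsm1b, a double mutant, and of Col-0, the control and wild-type accession, was hybridised together on 3 two-colour arrays, 1 for each biological replicate. The mutant was labelled with Cy3 on arrays 1 and 3 and with Cy5 on array 2, so each array gives a ratio of the genotypes and no level of either.

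For both genotypes the characteristics of the samples give an age of 2 weeks, and the growth protocol gives 2 weeks at 22 °C under 16 h of light and 8 h of dark. The sample descriptions instead name 3-week-old plants given 1 day at 4 °C, and which of these holds is not settled by the labels. LSM1A and LSM1B themselves were not analysed here, so the sign of the ratios was not checked against the mutated genes. Values are log2 ratios of lsm1a lsm1b over Col-0, a direction that is likely and not certain. It rests on the labels, which list the mutant as the first channel of every sample. The dye-swapped array correlated above 0 with the others (r = 0.427 with array 1 and 0.452 with array 3 over genes, against 0.745 between arrays 1 and 3), which shows that the 3 ratios run the same way but not which way. The labels do not say whether a replicate was 1 plant or a pool, so p-values refer to the spread between these 3 arrays. The test used, limma, moderates the spread of each gene with that of all genes.

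Proteins that enter the secretory pathway fold in the lumen of the ER. BiP proteins are the HSP70 chaperones of this compartment: they bind unfolded chains in cycles of ATP hydrolysis, which J-domain proteins such as ERDJ3B stimulate, and SDF2 forms a complex with ERDJ3B and BiP. The lectins calnexin (CNX1) and calreticulin (CRT1A, CRT1B, CRT3) hold glycoproteins that carry a glucose-trimmed sugar, and protein disulphide isomerases such as PDIL1-1 form and rearrange disulphide bonds. Many of these genes are induced when unfolded proteins build up, through the membrane sensor IRE1 and the transcription factors bZIP60, bZIP28 and bZIP17, and several are also induced in salicylic acid defence, which draws on secretion. CRT3, SDF2 and ERDJ3B are needed for the plant immune receptor EFR to accumulate. LSM1 is the subunit that defines the cytoplasmic LSM ring of messenger RNA decapping, and the comparison addresses how transcript levels change in plants that carry both mutations.

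None of the 10 genes passed the test for a difference between lsm1a lsm1b and Col-0. With limma over all 24656 genes and Benjamini-Hochberg adjustment at 0.05, 0 of 10 were called, against 1.21% of all genes. At an unadjusted p under 0.05 there were 4 (BIP2, ERDJ3B and PDIL1-1 above 0 and CRT1B below), against 20.1% of all genes (10.6% above 0 and 9.48% below). PDIL1-1 had the highest mean ratio, 0.75, and CRT1B the lowest, -0.60. The other 8 lay between -0.18 and 0.38. Across the genome the smallest called change was 0.70 on the log2 scale (1.62-fold), a size that PDIL1-1 alone of the 10 exceeded. The 95% intervals of 9 genes lay wholly within a 2-fold change in either direction, and that of PDIL1-1 reached 2.05-fold. These intervals come from limma's moderated error and are not adjusted for the number of genes.

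**Figure D1:**
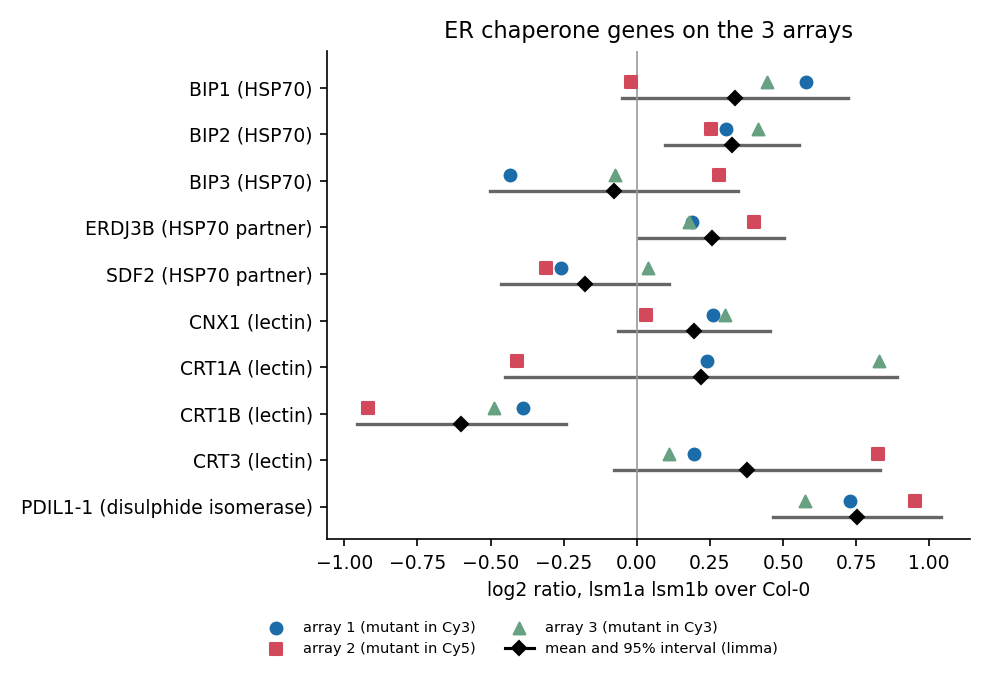
Log2 ratio of lsm1a lsm1b over Col-0 for the 10 ER chaperone genes, 1 coloured marker for each array and, beneath them, the mean of the 3 arrays with its 95% limma interval as a diamond and line. PDIL1-1 lies to the right of 0 on every array (0.58 to 0.95) and CRT1B to the left (-0.92 to -0.39), while the markers of BIP3 and CRT1A straddle 0.

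The disulphide isomerase gene PDIL1-1 stood at 0.73, 0.95 and 0.58 on arrays 1, 2 and 3. It was above 0 on all 3 arrays, and its spread was small beside its mean (0.75 ± 0.19, SD, n = 3; 1.68-fold higher, 95% interval 1.38 to 2.05). It did not pass (limma adjusted p = 0.0641), although 2.8% of genes had a higher mean and it ranked 547 of 24656 by p. Its 3 probes each lay above 0 on every array, with means of 0.76, 0.87 and 0.63. On array 2 the third probe (A_84_P814361) read 1.18, and it read 0.31 and 0.40 on the others. When probes were tested one by one, the lowest adjusted p of any of the 17 was 0.0693, for the PDIL1-1 probe A_84_P534691, and 0 passed, against 0.626% of all probes.

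Among the HSP70 genes, BIP2 gave the steadiest ratio, with 0.31, 0.26 and 0.42 on arrays 1, 2 and 3 (0.33 ± 0.08, SD, n = 3; limma adjusted p = 0.144). All arrays lay above 0 and close together, and the SD was the smallest of the 10 genes. Its 2 probes differed, however. Probe A_84_P122072 read 0.56, 0.09 and 0.46 on arrays 1, 2 and 3, and probe A_84_P863140 read 0.05, 0.42 and 0.37. Their SDs were 0.25 and 0.20, so the small SD of the gene does not describe its probes. BIP1, which encodes a nearly identical protein, stood at 0.58, -0.02 and 0.45 (0.34 ± 0.31; adjusted p = 0.308). Arrays 1 and 3 were high and array 2 was near 0, a split that the average of BIP2 did not show but its probe A_84_P122072 did. Probes of so similar a pair can share signal, and how far they do was not tested.

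BIP3, the BiP gene known for its strong induction under ER stress, stood at -0.44, 0.28 and -0.08 on arrays 1, 2 and 3. It was above 0 on the dye-swapped array alone, and its mean of -0.08 ± 0.36 (SD, n = 3; limma adjusted p = 0.902) is smaller than the spread. Its 95% interval ran from 0.71-fold to 1.27-fold. The differences of BIP3 from BIP1 on the same arrays were -1.02, 0.30 and -0.52, and from BIP2 -0.74, 0.03 and -0.49. Neither kept its sign over the arrays, and the exact two-sided sign-flip test gave p = 0.5 for each (0.625 adjusted over the 5 differences tested). With 3 arrays this test cannot go below 0.25.

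The J-domain gene ERDJ3B stood at 0.19, 0.40 and 0.18, above 0 on every array (0.26 ± 0.12, SD, n = 3; limma adjusted p = 0.237). SDF2, whose product works with it, stood at -0.26, -0.31 and 0.04 (-0.18 ± 0.19; adjusted p = 0.475). The pair therefore had means of opposite sign, each read by 1 probe, and neither differed from 0 at the threshold.

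The 3 calreticulin genes did not share a direction. CRT1B stood at -0.39, -0.92 and -0.49, below 0 on every array (-0.60 ± 0.28, SD, n = 3; 1.52-fold lower, 95% interval 1.18 to 1.94; limma adjusted p = 0.112). It was the only member below 0 on all 3 arrays, as were 18.0% of all genes, and 3.69% of genes had a lower mean. CRT1A, its closest relative, had the widest spread of the 10 genes, with 0.24, -0.41 and 0.83 (0.22 ± 0.62; adjusted p = 0.762). Each of these genes was read by a single probe, and no second probe was there to check either ratio.

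CRT3, the calreticulin gene tied to EFR, stood at 0.20, 0.83 and 0.11 (0.38 ± 0.39, SD, n = 3; limma adjusted p = 0.328). All arrays lay above 0, but array 2 was far higher than the others, and both probes showed it (0.83 and 0.82 on array 2, and 0.07 to 0.25 on arrays 1 and 3). CRT3 exceeded CRT1B on every array, by 0.59, 1.75 and 0.60 (mean 0.98 ± 0.67). The exact sign-flip test gave its smallest possible p, 0.25 (0.625 adjusted over the 5 differences). Against CRT1A the differences were -0.05, 1.24 and -0.72, with no shared sign (exact p = 1).

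Calnexin gene CNX1 stood at 0.26, 0.03 and 0.30 (0.20 ± 0.15, SD, n = 3; limma adjusted p = 0.371). Those values average 2 probes that moved against each other. Probe A_84_P10315 read -0.22, 0.43 and -0.14 on arrays 1, 2 and 3, and probe A_84_P851309 read 0.74, -0.37 and 0.74. One was above 0 on the dye-swapped array alone and the other below 0 there alone, 0.80 to 0.96 apart on each array, so the small SD of the gene does not describe its probes. The 2 probe means of BIP1 lay farthest apart, at 0.61 and 0.06. The lower one is a probe placed by gene symbol and not by transcript accession, and with accession-matched probes alone BIP1 stood at 0.61 and still did not pass. Probe means of the other members with several probes were at most 0.24 apart. On a single array their probes could differ more, as on array 1 by 0.51 for BIP2 and 0.79 for PDIL1-1. For comparison, the median distance between the lowest and highest probe mean was 0.17 over these 6 members and 0.15 over 7304 genes.

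**Figure D2:**
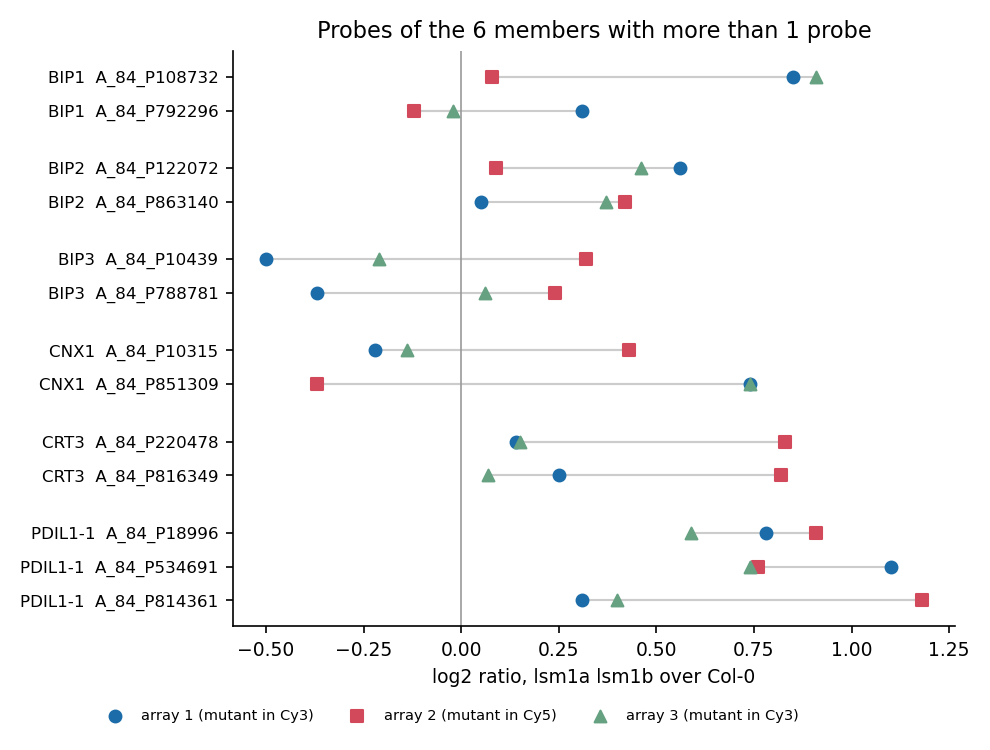
Log2 ratio of each probe of the 6 members with more than 1 probe, 1 row for each probe and 1 marker for each array. The rows of CNX1 mirror each other around 0, with array 2 at 0.43 in one and -0.37 in the other, whereas the rows of CRT3 nearly coincide and those of PDIL1-1 all lie above 0.

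Described as a group and without a test, the 10 genes lay slightly above 0. Their median mean ratio was 0.24, against 0.01 for all genes, and their medians on arrays 1, 2 and 3 were 0.22, 0.14 and 0.24. Means of 7 of 10 were above 0, against 12671 of all 24656 genes. On all 3 arrays 5 of 10 were above 0 (BIP2, ERDJ3B, CRT3, PDIL1-1 and CNX1), against 19.7% of all genes. The members varied more on the dye-swapped array: the SD across the 10 genes was 0.57 on array 2, 0.39 on array 1 and 0.37 on array 3. Put in order of their means, from PDIL1-1 through CRT3, BIP1, BIP2, ERDJ3B, CRT1A, CNX1, BIP3 and SDF2 to CRT1B, neighbours differed by more than the SD of their difference in 2 of 9 steps, the first and the last. In the other 7 steps the sign changed between arrays, so the order from CRT3 down to SDF2 is not settled.

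For all 10 genes the value on array 2 lay outside the range of arrays 1 and 3, above it for BIP3, ERDJ3B, CRT3 and PDIL1-1 and below it for the other 6. The same held for 79.4% of all genes. The median distance of array 2 from the mean of the other arrays was 0.39 over the members and 0.24 over all genes, the largest being CRT1A at -0.95 and CRT3 at 0.67. Array 2 differs from the others both in dye orientation and in the plants used, and these cannot be told apart.

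**Figure D3:**
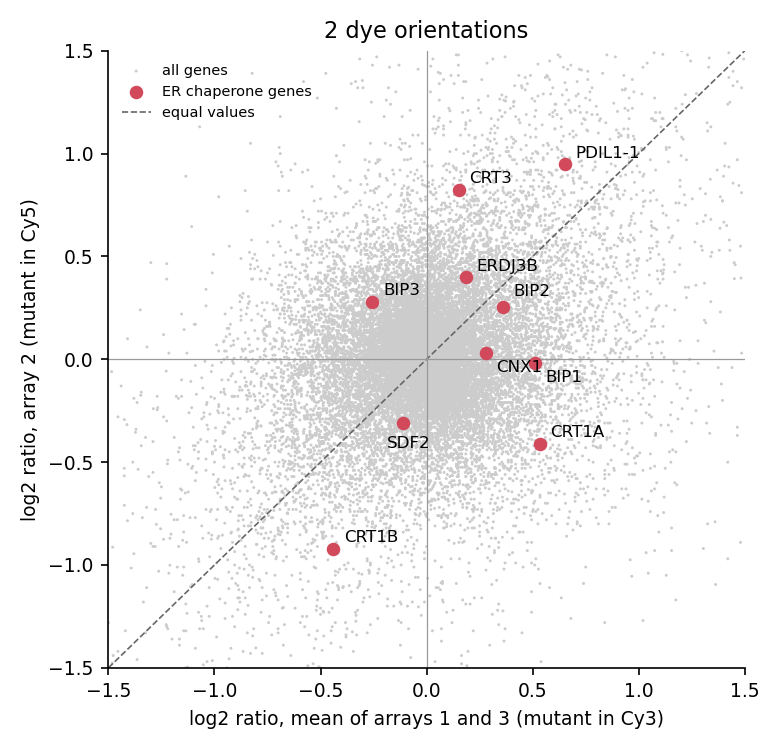
Log2 ratio on array 2, with the mutant in Cy5 (y axis), against the mean of arrays 1 and 3, with the mutant in Cy3 (x axis), for the members (red) and all genes (grey, of which 486 lie beyond the axis limits of 1.5). PDIL1-1 and CRT1B lie far from 0 in both orientations, CRT1A and BIP3 have opposite signs in the 2, and CRT3 is high on array 2 alone.

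Lists of other folding and quality-control genes were counted in the same way; their counts can be set against the shares of all genes given above (1.21% past the threshold, and 10.6% higher and 9.48% lower at an unadjusted p under 0.05), and in lists this short a count near those shares is no result about the list. Of 11 ER stress sensors, factors and related genes 0 passed in limma, with 1 higher and 1 lower at an unadjusted p under 0.05, and their median was -0.11. BZIP17, a membrane-bound factor released under ER stress, stood at -0.28 ± 0.29 (SD, n = 3). BI1, which encodes an ER-resident suppressor of cell death, stood at -0.75 ± 0.31 (limma adjusted p = 0.0888), but the means of its 3 probes ran from -2.96 to 0.95.

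Of 6 other ER HSP70, HSP90 and cochaperone genes 0 passed, and 0 had an unadjusted limma p under 0.05. The J-domain gene ERDJ3A stood at 0.37 ± 0.51, and the cochaperone gene P58IPK at -0.15 ± 0.20. Among 4 other genes of the lectin cycle 0 passed, with 1 higher at an unadjusted p under 0.05, and their median was -0.17. AT5G07340 stood at 0.41 ± 0.28 and EBS1, which encodes the enzyme that returns glucose to misfolded glycoproteins, at -0.34 ± 0.60. Beside PDIL1-1, 14 isomerase and oxidase genes were measured: 0 passed, 2 were higher at an unadjusted p under 0.05 (PDIL2-2 at 0.31 ± 0.07 and PDIL2-3 at 0.36 ± 0.18), and the median was 0.05.

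One gene of the translocon and signal peptidase list passed. AT4G24920, placed there by its locus code and not named in the gene table used here, stood at 0.89, 0.80 and 0.91 and rose 1.82-fold (0.87 ± 0.06, SD, n = 3; limma adjusted p = 0.0412), where 0.625% of all genes passed as higher and 0.584% as lower. It is read by 1 probe, and its call was lost without array 1, 2 or 3 (limma adjusted p = 0.295, 0.0737 and 0.281). All 298 calls over the genome were lost in these fits, so this loss is not particular to AT4G24920. AT3G48570 stood at 0.73 ± 0.58. Of the 12 measured genes of this list 5 were higher and 2 lower at an unadjusted limma p under 0.05, against 10.6% and 9.48% of all genes. Its means ran from -0.61 to 0.87, and its median was 0.33, the highest of the lists here.

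In the lists for the oligosaccharyltransferase (9 genes), ER-associated degradation (8 of 12 measured) and retrieval receptors (2 genes), 0 genes passed. At an unadjusted limma p under 0.05, 1 of the first and 1 of the second were lower and 0 of the third differed. Their medians were -0.09, 0.02 and -0.01. DAD2 stood at -0.39 ± 0.34 and AT1G76400 at -0.36 ± 0.30 in the first, and AT4G29960 at -0.51 ± 0.42 and UBC32, a ubiquitin-conjugating enzyme gene of the ER membrane, at 0.21 ± 0.39 in the second. ERD2A and ERD2B, which encode receptors that return ER proteins from the Golgi, stood at -0.003 ± 0.06 and -0.01 ± 0.51.

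Of 4 immune receptor and defence regulator genes 0 passed, with 2 higher and 1 lower at an unadjusted limma p under 0.05. TBF1, a heat shock factor gene whose product regulates ER chaperone genes in salicylic acid defence, stood at 0.80, 1.01 and 0.71 (0.84 ± 0.15, SD, n = 3; limma adjusted p = 0.0503), with 3 probe means between 0.83 and 0.86. FLS2, the flagellin receptor gene, stood at -0.71, -0.48 and -0.48 (-0.56 ± 0.13; adjusted p = 0.0778). Both kept their sign on every array, at opposite sides of 0.

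**Figure D4:**
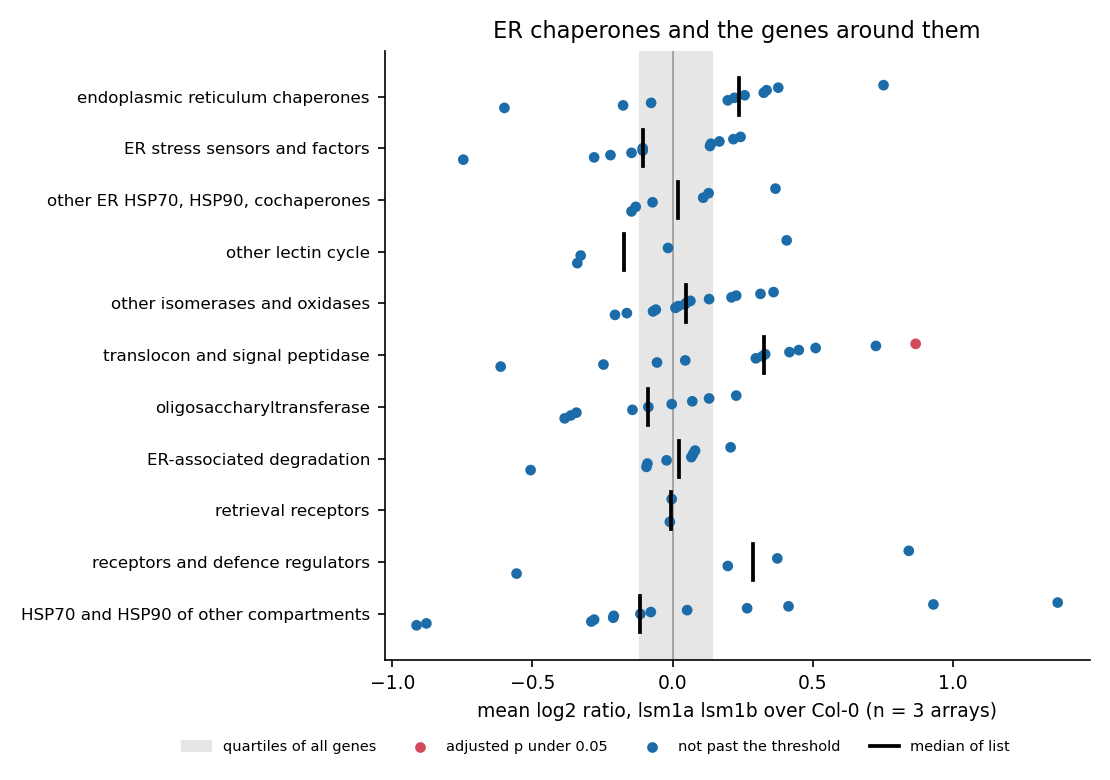
Mean log2 ratio (n = 3 arrays) of every measured gene of the ER chaperones and of the 10 lists around them, with the median of each list as a black bar and the quartiles of all genes shaded. The red point is AT4G24920 at 0.87, the 1 gene past the threshold. The medians of the ER chaperones (0.24), the translocon and signal peptidase list (0.33) and the receptors and defence regulators (0.285) lie above the shaded band. That of the other lectin cycle genes (-0.17) lies below it, and that of the HSP70 and HSP90 genes of other compartments (-0.115) lies at its lower edge.

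The chaperone genes of other compartments covered a wider range of means than those of the ER, in both directions, a comparison made without a test. Of 13 measured HSP70 and HSP90 genes of the cytosol, mitochondria and chloroplasts 0 passed in limma, with 3 higher and 3 lower at an unadjusted p under 0.05. Their means ran from -0.91 to 1.37, with a median of -0.12, against -0.60 to 0.75 for the ER genes. The lowest mean outside the ER averaged 2 probes, with means of -1.63 and -0.20, and the highest came from 1 probe. Both ends of the wider range were cytosolic genes, and the means of the mitochondrial and chloroplast genes lay only between -0.29 and -0.115. The ends of the ER range were CRT1B and PDIL1-1, which are not HSP70 or HSP90 genes. HSP70-4, a heat-inducible cytosolic gene, stood at 1.53, 1.70 and 0.89, and the stress-inducible HSP90.1 at 0.95, 1.16 and 0.68. HSP70-4 lay above BIP2 (0.31, 0.26 and 0.42) on every array, so how BIP2 compares depends on the cytosolic gene chosen. The constitutive cytosolic gene HSP70-1 stood at -0.75, -0.48 and -1.40, and BIP2 exceeded it on every array, by 1.06, 0.74 and 1.81 (mean 1.20 ± 0.55, SD; exact sign-flip p = 0.25, the smallest possible, and 0.625 adjusted).

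**Figure D5:**
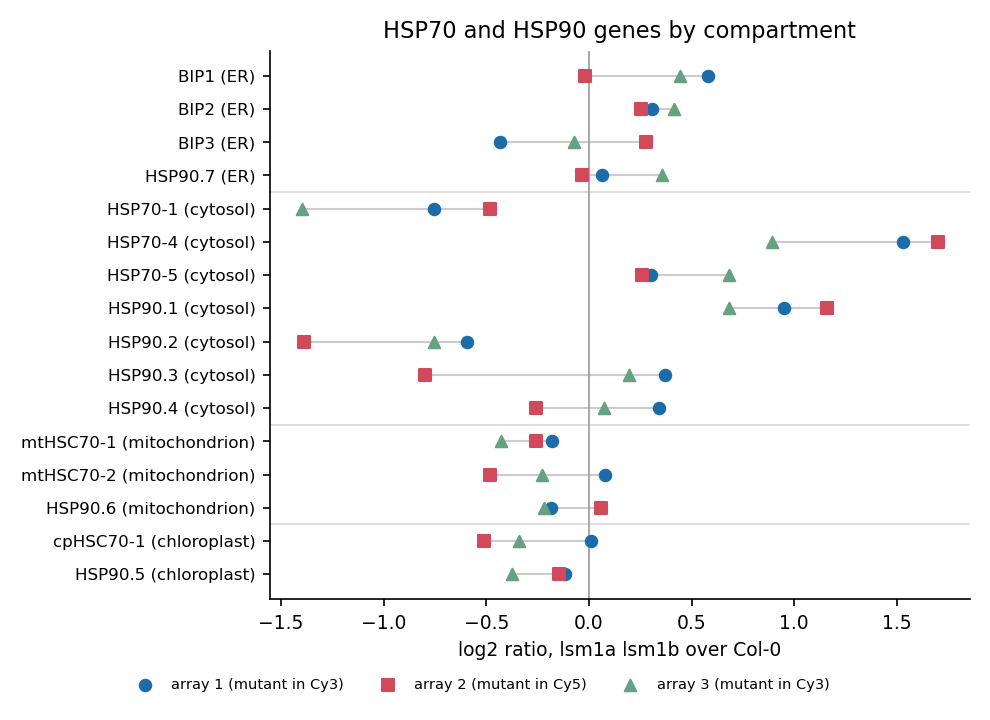
Log2 ratio on each array (markers) for HSP70 and HSP90 genes of the ER, cytosol, mitochondrion and chloroplast, with a line from the lowest to the highest array. HSP70-4 and HSP90.1 lie above 0.6 on every array, HSP70-1 lies below -0.4, and the BiP genes stay between -0.44 and 0.58.

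Ratios cannot show whether the RNA came from rosettes, only whether genes of other organs differed between genotypes. Of 4 flower, 3 root and 3 seed marker genes 0 passed, and 0 had an unadjusted limma p under 0.05. AP1 and AP3 stood at 0.30 ± 0.27 and 0.20 ± 0.23 (SD, n = 3), SHR and PHO1 at -0.13 ± 0.13 and 0.15 ± 0.30, and CRU3 and OLEO1 at -0.13 ± 0.15 and -0.08 ± 0.11.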

How the data were processed

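Deposited values were normalized log2 ratios, 1 per probe and array and given to 2 decimals; per the submitters' processing notes limma was used, with no version. How background was corrected and arrays normalized, the log base and the sign are not stated there; the base was taken as 2, from the range of the values (-6.76 to 5.87), and array medians were 0, 0.01 and -0.01. No intensities were used, so dim probes cannot be recognised, and the 3 arrays limit the precision.

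The 55 control features were left out. Of the other 43601 probes, the platform annotation gave 1 symbol for 34342, several for 0 and none for 9259. In the gene table of TAIR10.1, accessions placed 32238 and symbols 2035, while 44 conflicted and 25 matched no gene or more than 1. Probes of a gene were averaged. The array's build is not named, so no coordinates are given.

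Each gene's mean ratio was tested against 0, two-sided, with an intercept-only model in limma 3.58.1 (R 4.3.3; lmFit, then eBayes), adjusted by Benjamini-Hochberg over 24656 genes; 298 passed, 154 higher and 144 lower. The fit was tested on simulated data. A fold is 2 to the power of a mean. The alternatives are arrays left out, a dye term, probe choice, scaling and variance model.

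The members and lists were chosen with earlier results of these data known. The genes named are all members and the 2 largest absolute means of each list, plus any member of a list past the threshold. HSP70-1 is named because its difference from BIP2 was among those tested. Promoter and protein sequences were not analysed here.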

Additional observations from a re-analysis of the deposited data

How the results depend on the processing

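The count of ER chaperone genes past the threshold was 0 in every alternative run, with limma adjusted p of at least 0.0605 and 2 to 6 members (or probes) at an unadjusted p under 0.05. Over all genes, 298 became 0 without array 1, 2 or 3 (2805, 7326 and 2543 at an unadjusted p under 0.05), 0 with a dye term, which leaves 1 residual degree of freedom (6388 unadjusted), and 74 with arrays centred and scaled; for the scaling the cause was not tested. Other settings gave 214 to 300. BIP3 ran from -0.26 to 0.10 with 1 array left out and stood at 0.0125 with a dye term, and CRT1A ran from -0.085 to 0.54. The other 8 members kept their sign. ERD2A ran from -0.035 to 0.025, and stood at 0.0125 with a dye term, ERD2B from -0.21 to 0.28 and PHO1 from -0.01 to 0.29. AT4G24920 kept its sign (0.85 to 0.90) but also lost its call with a dye term (adjusted p = 0.0706), with scaled arrays (0.0556) and with a trended, robust prior (0.278). The trend of that prior was fitted to each gene's mean absolute log2 ratio and not to intensities, which were not used. It therefore depends on the size of the ratio under test. Turning the ratio would turn every sign and leave sizes and p-values. The genotypes are paired within each array, so the test of each ratio against 0 is already a paired comparison. No further pairing was possible, because no second group of ratios exists whose replicates could be matched. Signal over background is unknown here.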

Other observations

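CRT3, BIP3 and CRT1B lie near one another on chromosome 1, with 59 measured genes between the first and the second and 14 between the second and the third in the order of locus codes, and their mean log2 ratios were 0.38, -0.08 and -0.60.

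The mean profile of the 10 ER chaperone genes was 0.14, 0.11 and 0.23 on arrays 1, 2 and 3. The genes outside all lists with the closest values, by Euclidean distance over the 3 arrays, were AT3G58020, MSI2 and AT4G25410 (distance 0.022 each) and AT2G44020 and AT3G52730 (0.027 each). Of 24553 genes compared, 147 lay within 0.1 of the profile, and none of the 5 named passed limma's threshold (adjusted p = 0.361 to 0.42).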
